A study of Arabidopsis thaliana with 2 samples.

Results

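The genes described here are encoded in the chloroplast genome of Arabidopsis thaliana and act outside the photosynthesis complexes. They make plastid ribosomes, the plastid RNA polymerase, the NDH complex and a few other plastid proteins. A member is a probe set that the array annotation pairs with 1 chloroplast-encoded gene whose symbol does not start with psa, psb, pet or atp and is not rbcL. This rule gave 36 genes, each with 1 probe set, out of 69 chloroplast-encoded genes with a probe set of their own and 22810 probe sets on the array. The other 33 are photosynthesis genes. Chloroplast genes that meet the naming part of the rule without a probe set paired with them alone, among them ndhB, rpl2 and ycf1, are not members. Where a probe set was paired with both copies of 1 inverted repeat gene, it enters a single alternative count and is not described by name.

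RNA of whole plants grown for 5 weeks under 10 h of light and 14 h of darkness had been hybridised to Affymetrix ATH1 arrays, and the values analysed are those of 1 array of wild-type Col-0 and 1 array of csb3. The csb3 mutant (constitutive subtilisin3) is in the Col-0 background and came from a screen with a reporter driven by the promoter of a tomato subtilase, P69C. It carries a mutation in the gene for HDS, an enzyme of the plastid isoprenoid pathway, and is dwarfed. HDS has no named probe set here. The design text states that 5 plants were collected, and does not say whether they were pooled or whether the Col-0 plants carried the reporter. Since each genotype is represented by 1 array, the differences lack replicates and were not tested.

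The chloroplast keeps a small genome from its cyanobacterial ancestor and reads it with its own machinery. A bacterial-type RNA polymerase, whose core subunits are encoded by the rpo genes, works beside a phage-type polymerase imported from the cytosol. Bacterial-type ribosomes, with rps and rpl proteins from both genomes, translate the transcripts. The NDH complex of the thylakoid membrane returns electrons from ferredoxin to plastoquinone. Many chloroplast genes lie in clusters that are transcribed together and cut into smaller RNAs afterwards.

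Each value below is a MAS5 signal, the summary brightness of a probe set on a linear scale, and levels of different genes are not compared because each probe set has its own sensitivity. A floor of 50 was applied to each signal, and the ratio was then taken as csb3 over Col-0. Where 1 of the signals lay under the floor the fold is a minimum and is written as at least, and where both did it is left out. A probe set was called down or up in csb3 when the ratio reached 2-fold.

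Transcripts of these genes had lower signals in csb3. Of the 36 members, 19 (52.8%) were called down, 1 (2.78%) was called up and 16 were neither, whereas 2.74% of all probe sets on the array were down and 4.56% were up. At 4-fold, 11 members were down and 0 were up, against 0.263% and 0.886% of all probe sets. The median log2 ratio of the members was -1.10, and that of all probe sets was 0. These values depend on the scaling between the arrays: with spike-in controls as the reference, 11 members were down, 3 were up and the members' median was -0.16. Under that scaling 0.351% of all probe sets were down and 33.6% were up. Their median was 0.58, so that of the members was still the lower. The calls of rps16, rps19, rpl32, rpl36, rpoA, ndhD, accD and cemA were lost there. Of the 36, 28 had a signal of 50 or more on both arrays, and 26 of these 28 were lower in csb3 and 2 were higher. Another 6 were below 50 on 1 array, and rpoB and rps15 were below 50 on both. Bright probe sets were lower in csb3 more often than others. Among the 1700 probe sets whose geometric mean of both signals (the mean on the log scale) was 1000 or more, 7.88% were down and 1.88% up, with a median log2 ratio of -0.24. Of the 12 members at that level, 9 were down and their median was -1.57. The other 24 members had a median of -0.85, with 10 down and 1 up. The 16 of them at 50 or more on both arrays had a median of -1.32. The 24 include clpP and rps4, which were bright in Col-0 and have a geometric mean below 1000 through their low csb3 signals. Among members, the log2 ratio showed little relation to the mean log2 signal (Pearson's r = -0.07 and Spearman's rho = -0.02 across 28 genes of the same pair of arrays, which are not independent replicates).

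**Figure D1:**
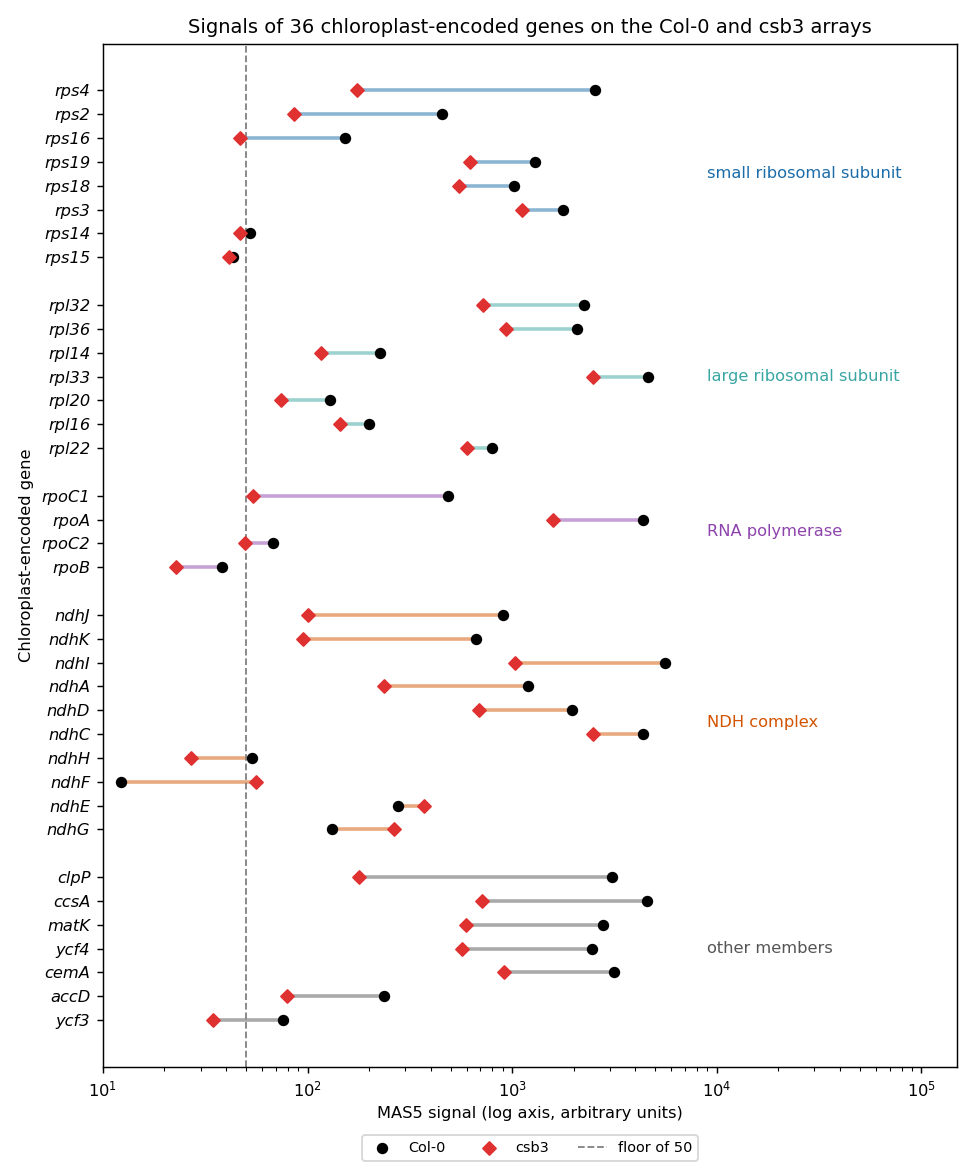
MAS5 signals (log axis) of the 36 genes on the Col-0 array (circles) and the csb3 array (diamonds), grouped by function, 1 array per genotype, with the floor of 50 as a dashed line. The csb3 signal lies to the left of the Col-0 signal for all genes except ndhE, ndhF and ndhG.

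The hybridisation itself also differed between the arrays, and these values stand beside every result here. The 18 spike-in controls, bacterial and phage transcripts added at hybridisation, were all lower on the csb3 array, with a median log2 ratio of -0.98. The control probe set for cytosolic 25S rRNA, an RNA without a poly(A) tail, gave 384.4 on the Col-0 array and 17.3 on the csb3 array, at least 7.69-fold lower. For RNA integrity, the actin probe set at the 3′ end gave 2.06 times the signal of that at the 5′ end in wild type and 4.91 times in the mutant, and a second actin pair gave 1.74 and 2.22. The pairs for GAPDH gave 1.29 and 1.40, and 0.87 and 1.28. Those for ubiquitin gave 2.66 and 1.98, and 1.64 and 1.40. The labels cite the standard Affymetrix labelling, which starts from poly(A) tails. Chloroplast transcripts mostly lack stable tails, so less of an RNA and less labelling of it cannot be told apart. The part of these differences in the results was not tested.

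The core of the plastid-encoded polymerase is built from rpoA (alpha subunit), rpoB (beta) and rpoC1 and rpoC2 (beta′ and beta″). The rpoC1 signal was 487.4 for Col-0 and 54.2 for csb3, 8.99-fold lower. The rpoA signal was 4339 for Col-0 and 1579 for csb3, 2.75-fold lower. Both were called down, and with spike-in scaling the log2 ratio of rpoA was -0.48, short of the call. The other subunits were dim: rpoC2 had 67.9 and 49.3, at least 1.36-fold lower, and rpoB had 38.0 and 22.8. The median log2 ratio of the 4 genes, -0.95, includes these dim members, and that of the 2 genes measured on both arrays was -2.31. With spike-in scaling the median of the 4 was -0.24, against 0.58 for all probe sets.

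The maturase gene matK encodes a factor for the splicing of group II introns in several chloroplast transcripts, among them those of tRNA genes. Its signal was 2768 for Col-0 and 594.5 for csb3, 4.66-fold lower.

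Among the 8 small-subunit ribosomal genes, 4 were down and 0 were up, with a median log2 ratio of -0.98. With the arrays scaled on the spike-in controls it became 0.0049, where that of all probe sets was 0.58. The lowest ratio was that of rps4, which encodes a protein that starts the assembly of the small subunit in bacteria, with 2546 for Col-0 and 174.6 for csb3, 14.6-fold lower. The rps2 signal was 456.6 for Col-0 and 85.7 for csb3, 5.33-fold lower. These 2 genes passed 4-fold, and no other ribosomal gene did. The rps16 signal was 152.7 and fell below the floor in csb3 at 46.6, at least 3.05-fold lower, and rps19 had 1291 and 621.8, 2.08-fold lower. Short of 2-fold were rps18 with 1021 for Col-0 and 548.0 for csb3, rps3 with 1765 and 1113, and rps14 with 52.1 and 46.6. The rps15 signals of 43.3 and 41.3 were both below the floor.

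The 7 large-subunit genes were all measured on both arrays. On the deposited scale all 7 were lower in csb3, with log2 ratios from -1.64 to -0.40 and a median of -0.89. With spike-in scaling the median became 0.088, against 1.06 for all probe sets measured on both arrays. Of the 7, 2 were called down on the deposited scale. The rpl32 signal was 2251 for Col-0 and 722.1 for csb3, 3.12-fold lower, and rpl36 had 2065 and 936.6, 2.20-fold lower. The other 5 stayed between the limits of 2-fold. Of these, rpl14 gave 225.7 for Col-0 and 116.8 for csb3, and rpl33 had 4592 and 2473. The rpl20 signal was 129.2 for Col-0 and 74.0 for csb3, 1.75-fold lower. The smallest differences were those of rpl16, with 199.1 and 144.4, and rpl22, with 793.5 and 602.1, 1.32-fold lower.

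The NDH genes were the most varied group, with ratios on both sides of 0. Of the 10 genes, 5 were down, 1 was up and 4 were neither, with a median log2 ratio of -1.16. With spike-in scaling it became -0.27, against 0.58 for all probe sets, 33.6% of which were then called up. Under that scaling ndhD lost its call at -0.53, ndhC turned to 0.17, and ndhE and ndhF were called up beside ndhG, at 1.41 and 1.15. Both the hydrophilic subunits, which connect the complex to its electron input, and the membrane subunits included low ratios. Of the hydrophilic subunits, ndhJ gave 906.3 for Col-0 and 101.0 for csb3, 8.97-fold lower, and ndhK, a subunit that holds an iron-sulphur cluster, had 666.1 and 95.1, a log2 ratio of -2.81. The ndhI signal, for another iron-sulphur subunit, was 5592 for Col-0 and 1032 for csb3, 5.42-fold lower. ndhH, of the same arm, was near the floor with 53.5 and 26.9.

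Among the membrane subunits, ndhA gave 1192 for Col-0 and 235.3 for csb3, 5.07-fold lower, and ndhD had 1966 and 692.1, 2.84-fold lower. The ndhC signal was 4366 for Col-0 and 2484 for csb3, 1.76-fold lower and short of the call. The genes with a higher signal in csb3 were also membrane subunits. ndhG gave 131.6 for Col-0 and 264.9 for csb3, 2.01-fold higher and just past the limit of the call, and ndhE had 277.0 and 372.1, 1.34-fold higher. ndhF, below the floor in Col-0 with 12.2, had 56.1 in csb3, at least 1.12-fold higher. The call of ndhG was lost, with the ratio still above 0, under every scaling other than that on spike-in controls and with 32 added to each signal.

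The remaining 7 members, matK included, were all lower in csb3, and 6 of them were called down. Their median log2 ratio was -2.12, or -1.14 with spike-in scaling. The largest difference of all 36 genes was that of clpP, which encodes a catalytic subunit of the stromal Clp protease, with 3072 for Col-0 and 177.6 for csb3, 17.3-fold lower. ccsA, needed to attach heme to c-type cytochromes, gave 4576 for Col-0 and 715.5 for csb3, 6.40-fold lower. accD, for a subunit of the acetyl-CoA carboxylase that starts fatty acid synthesis, had 237.4 and 79.0, 3.01-fold lower.

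The others of this group are membrane-linked. ycf4, an assembly factor of photosystem I, gave 2460 for Col-0 and 566.3 for csb3, 4.34-fold lower, and cemA, an envelope membrane protein, had 3139 and 915.7, 3.43-fold lower. ycf3, another assembly factor of photosystem I, gave 75.6 for Col-0 and 34.5 for csb3, at least 1.51-fold lower. The 7 csb3 signals thus ranged from 34.5 to 915.7, where those of Col-0 ranged from 75.6 to 4576.

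**Figure D2:**
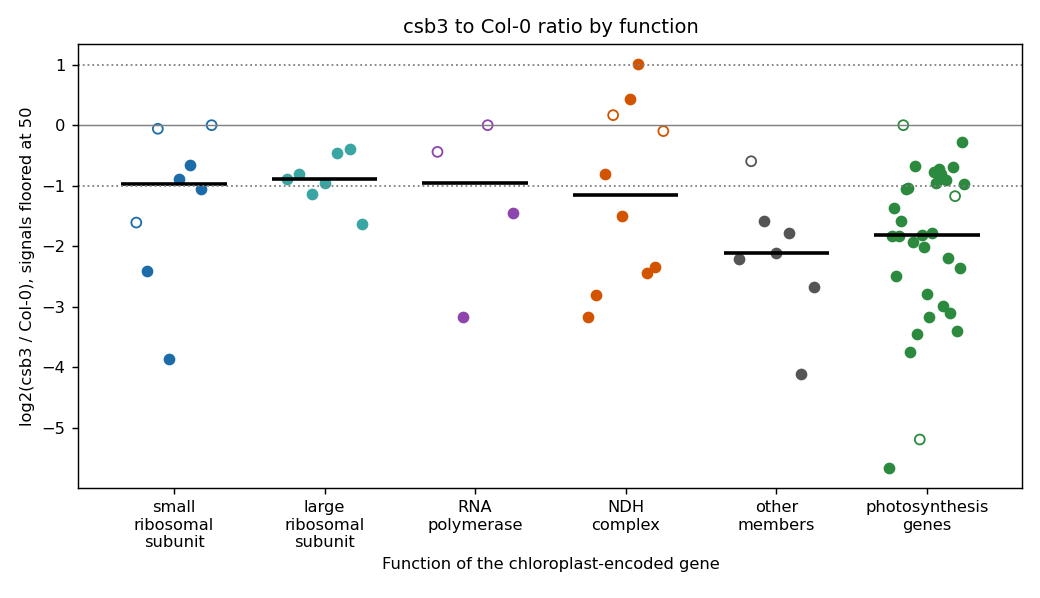
Log2 ratio of csb3 to Col-0 for each chloroplast-encoded gene by function, with filled points for genes at 50 or more on both arrays, open points for genes below 50 on at least 1 array and bars for medians. Dotted lines mark 2-fold. The medians of the ribosomal and polymerase groups lie between -0.98 and -0.89, that of the other members at -2.12 and that of the photosynthesis genes at -1.81.

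The spread between probe sets of 1 gene gives a scale for these differences. Probe sets of the same gene, for 47 genes with more than 1 probe set at 50 or more on both arrays, gave an SD of 0.64 for a log2 ratio. This is a spread within the array pair and not between plants. Of the 28 members measured on both arrays, 16 were lower on the deposited scale by more than 2 such SD, or 1.27 in log2, and 0 were higher by that much. The share of all probe sets past 1.27 was not counted, and at the smaller limit of 2-fold 2.74% were down. With spike-in scaling matK, ycf4, cemA, rpl32, accD, ndhD and rpoA came within 1.27, and ndhE and ndhG were higher by more than that. On the deposited scale, the 16 included all the members past 4-fold, and the ratios of rps19, rpl36 and ndhG, each called at 2-fold, lay within 1.27.

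Neighbours in the gene order of the RefSeq annotation (assembly TAIR10.1) had similar ratios in some runs and not in others. The array's build is not given in the sources used here, so the order is used and no coordinates are printed. Strand was not considered, so neighbours in this order need not be transcribed together. The longest run of members is a cluster of ribosomal protein genes that ends with rpoA. On the deposited scale, all 7 of its members with a probe set, rpoA, rpl36, rpl14, rpl16, rps3, rpl22 and rps19, were lower in csb3, with log2 ratios from -1.46 (rpoA) to -0.40 (rpl22), and 0 of 7 reached 4-fold. The run of rpl33, rps18 and rpl20 was narrower still, from -0.90 to -0.80, with 0 of 3 called.

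Other neighbours differed. In the run of ndhJ, ndhK and ndhC, the log2 ratios were -3.17, -2.81 and -0.81, so ndhC stood apart from the genes beside it. rps2 (-2.41) lies next to rpoC2, which was dim, and rpoC1 (-3.17) lies between rpoC2 and rpoB, which was dim too. From ndhD to ndhH, the ratios changed sign and back along the order: ndhD had -1.51, the photosystem I gene psaC between them had -0.98, ndhE had 0.43, ndhG 1.01, ndhI -2.44 and ndhA -2.34. The higher signals of ndhE and ndhG in csb3 were therefore those of adjacent genes, with lower signals on either side.

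**Figure D3:**
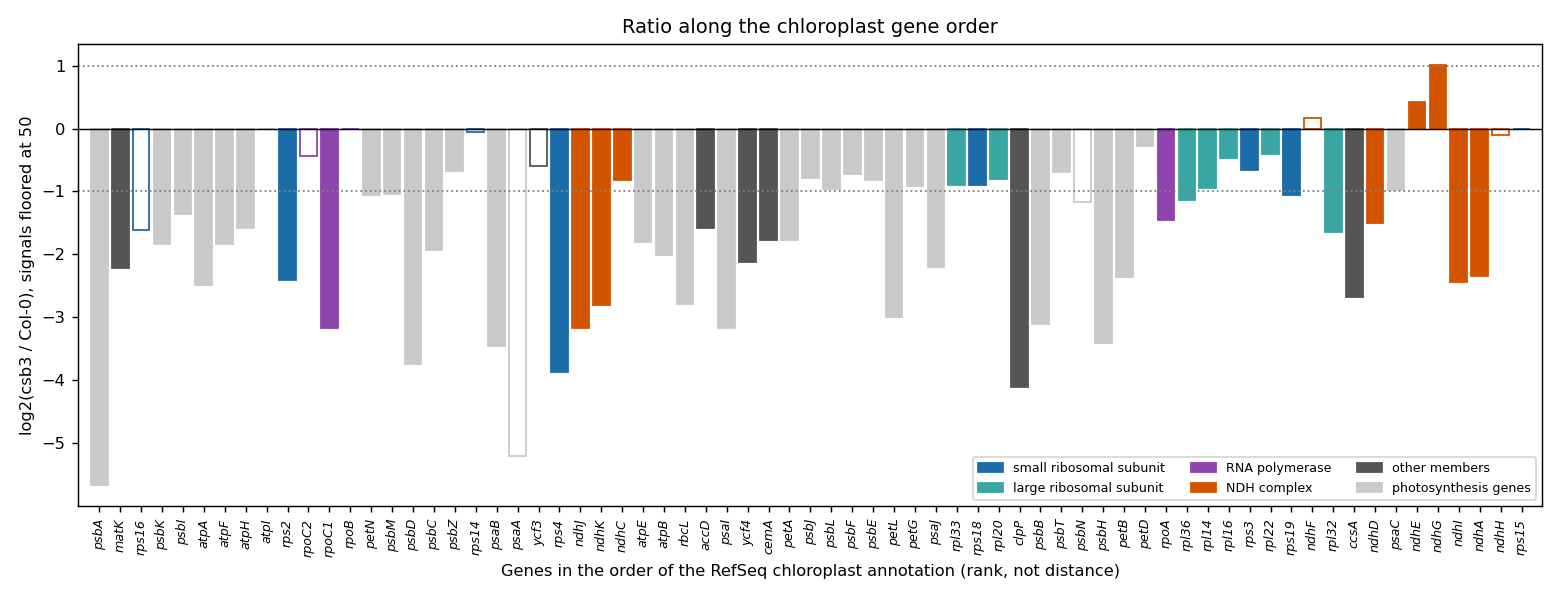
Log2 ratio of csb3 to Col-0 for chloroplast-encoded genes in annotation order, in colour for the 36 genes described and grey for photosynthesis genes, with open bars where a signal was below 50 and dotted lines at 2-fold. The ribosomal protein cluster from rpoA to rps19 stays between -1.46 and -0.40 on the deposited scale, and ndhE and ndhG lie above 0 between lower neighbours.

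The photosynthesis genes of the same genome had lower signals in csb3 as well. Of the 33, 23 (69.7%) were down and 0 were up on the deposited scale, where 2.74% and 4.56% of all probe sets were. The median log2 ratio of the 33 was -1.81, against -1.10, with 19 of 36 down, for the genes outside photosynthesis. Counts with spike-in scaling, which moved the median of probe sets measured on both arrays by 0.98, were not made for these 33 genes. Among genes measured on both arrays the medians were -1.82 for 30 photosynthesis genes and -1.55 for the 28 members. The difference between these groups was not tested, since the arrays give no replicates. Some members with a low ratio lie beside a photosynthesis gene with a low ratio: clpP (-4.11) lies next to psbB (-3.10), and ycf4 (-2.12) and cemA (-1.78) lie between psaI (-3.17) and petA (-1.78). Other such neighbours differed: rpoA (-1.46) lies next to petD (-0.28), rpl33 (-0.89) next to psaJ (-2.20) and ndhC (-0.81) next to atpE (-1.81). Strand was not considered for any of these pairs. Most photosynthesis genes were down on the deposited scale, so a low neighbour is common.

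Nuclear genes that supply the same plastid machinery could be named in few cases. From 9 lists of 125 nuclear genes (sigma factors, phage-type polymerases, polymerase-associated proteins, RNA processing factors, plastid ribosomal proteins, NDH subunits, Clp proteins, acetyl-CoA carboxylase and the plastid isoprenoid pathway), the array annotation pairs 21 with a probe set of their own, and RefSeq names 5 of these. This annotation does not list 8794 of the 22810 probe sets, so a gene without a pairing may still be measured on the array. Of the 5, 2 were down, 0 were up and 3 were neither. The share of all probe sets was 2.74% down and 4.56% up. For those with a geometric mean signal of 1000 or more it was 7.88% and 1.88%. The nuclear NDH subunit genes NdhL, with 2185 for Col-0 and 734.0 for csb3 (2.98-fold lower), and NdhN, with 1843 and 798.2 (2.31-fold lower), were called down. Another subunit, NdhS, gave 2339 for Col-0 and 1369 for csb3, 1.71-fold lower. CLPP4, a nuclear-encoded partner of clpP, had 2065 and 1337, 1.54-fold lower, and CAF1, a splicing factor for group II introns, had 60.1 and 95.8, 1.59-fold higher. Transcripts of the nucleus carry poly(A) tails, and the part of labelling in these differences was not tested. Apart from NdhL, with a log2 ratio of -1.57, these differences lay within the 1.27 given above as 2 SD on the deposited scale. Spike-in scaling moved the median of probe sets measured on both arrays by 0.98, and such a shift leaves neither NdhL nor NdhN called.

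Few markers of the organs in the whole plants had a named probe set. Of the 4 named root markers 2 were up and 2 were below 50 on both arrays, and the 1 named leaf marker was not called. Over all probe sets, 4.56% were up. The leaf marker RCA, which encodes Rubisco activase, gave 12691 for Col-0 and 7432 for csb3, 1.71-fold lower, and was the 1 gene of 6 listed leaf markers with a named probe set. Of 5 root markers, 4 have a named probe set: PYK10 gave 27.8 for Col-0 and 1220 for csb3 and NAI2 had 26.5 and 241.1, whereas EXPA7 (19.2 and 28.4) and EXPA18 (11.5 and 28.3) stayed below 50. None of the 6 flower and seed markers is paired with a probe set of its own in the annotation used. These values stand beside the lower chloroplast signals. Fewer green cells and less chloroplast RNA per cell cannot be told apart in such samples, and the part of organ content in the lower signals was not tested.

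How far the members were lower depended on how the arrays were scaled to each other. On the deposited scale the median log2 ratio of the 12540 probe sets measured on both arrays was 0.08. Equal medians, quantile normalization and scaling on the loci AT4G34270 and AT2G28390 moved this median by -0.14, -0.15 and -0.23, and gave 22, 20 and 24 members down and 0 up. Scaling on the spike-in controls moved it by 0.98, up to 1.06, gave 11 members down and 3 up, and left 21 of 36 below 0. The ratios of rpl14, rpl16, rpl20, rpl22, rpl33, rps3, rps14, rps15, rps18, rpoC2 and ndhC then lay above 0, beside those of ndhE, ndhF and ndhG. Over all probe sets, 624 were down and 1041 up on the deposited scale, against 920 and 777 with equal medians, 775 and 818 with quantiles, 1174 and 660 with the reference loci, and 80 and 7671 with the spike-in controls.

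**Figure D4:**
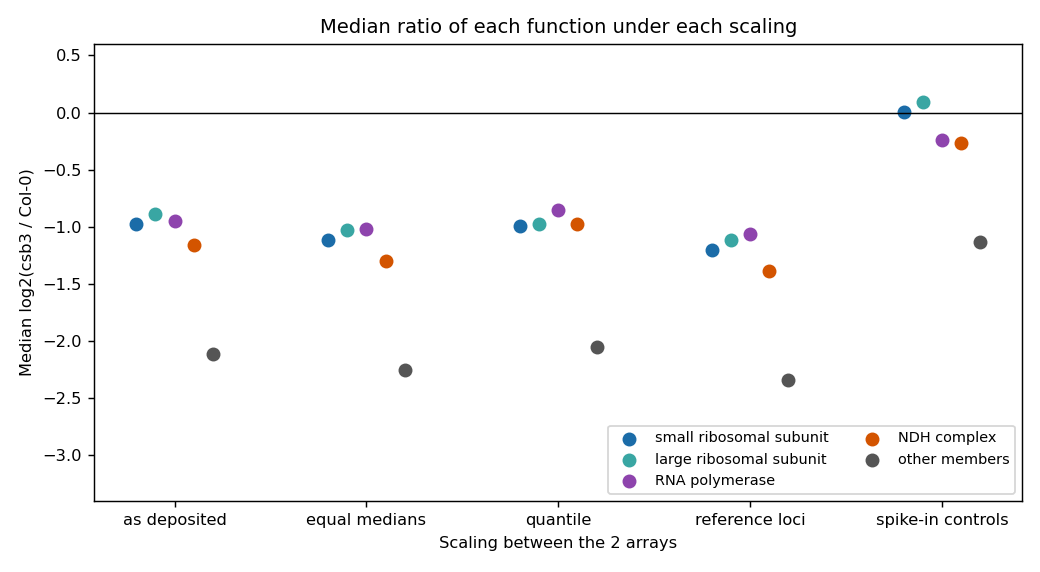
Median log2 ratio of csb3 to Col-0 for each function group under 5 ways of scaling the arrays. Medians move little under the first 4, and with the spike-in controls the other members stay lowest, at -1.14, while the ribosomal medians reach 0.0049 and 0.088. The median of all probe sets, not drawn, was 0.58 with the spike-in controls.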

How the data were processed

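Signals of 1 Col-0 array and 1 csb3 array were used. The deposited values are intensity signals on a linear scale, made by the authors with MAS5 (version not given in the sources used here). Trimming 2% of probe sets at either end left means of 250.03 and 250.02, so the arrays had been scaled to a common target. SAM on triplicates, named in the methods, could not be run with 1 array per genotype.

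The array annotation pairs 13513 of 22810 probe sets with 1 gene, 503 with several and does not list 8794. RefSeq genes (TAIR10.1) gave symbols and gene order, and nuclear loci without a RefSeq name were counted and not described. Signals were floored at 50 and log2 ratios computed with Python 3.11.15, NumPy 2.4.6 and pandas 2.3.3, drawn with matplotlib 3.10.9. The counting was tested on simulated data. All members are named, and of the nuclear lists every gene with a RefSeq name. The members and lists were chosen with earlier results of these data known. The number of arrays limits the precision. Alternatives were floors of 20 and 100, no floor, 32 added, 4 scalings and 4 choices of probe sets. Of these choices, leaving out _s_at and _x_at probe sets and keeping 1 probe set per gene removed no member. They therefore repeat the main result and test nothing.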

Additional observations from a re-analysis of the deposited data

How the results depend on the processing

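No paired analysis was possible because Col-0 and csb3 have 1 array each. Adding the 8 probe sets paired with both copies of 1 inverted repeat gene was chosen after seeing the data and gave 23 down and 1 up, and the other alternatives were set earlier. With spike-in scaling 11 members were down and 3 up. The medians then were -0.16 for all members, 0.0049 for the small and 0.088 for the large ribosomal subunit genes, both turned in sign, -0.24 for rpo, -0.27 for ndh and -1.14 for the other members. All of these lay below the median of all probe sets under that scaling, which was 0.58. The number of members up was 2 with a floor of 20 and without a floor, and 0 with 32 added and with scaling to equal medians, on reference loci or by quantiles. Over members at 50 or more on both arrays the medians were -2.31 for rpo and -1.92 for ndh, since dim members at the floor drop out. The counts of members down were between 18 and 24 under the alternatives other than spike-in scaling. With spike-in scaling 33 of 36 single members moved by 0.64 (the SD given above) or more, and under the other 7 alternatives 9 of 252 recomputed ratios did. No called ratio changed sign under these 8. Signal over background limits the 8 members below 50 on an array.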

Other observations

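The mitochondrial genome encodes relatives of some of these genes, and their probe sets were mostly dim. Complex I of the respiratory chain shares its ancestry with the NDH complex, and its nad genes have 15 probe sets named for 1 gene, several of them for nad1. Of the 15, 7 reached 50 on at least 1 array, and the 8 others could not be called. In csb3 1 (6.67%) was down and 0 were up, against 2.74% and 4.56% of all probe sets. Over all 23 mitochondrial probe sets named for 1 gene, 2 were down and 0 were up. nad4, a relative of ndhD, gave 135.9 for Col-0 and 34.9 for csb3, at least 2.72-fold lower. nad9, a relative of ndhJ, gave 12.1 for Col-0 and 59.2 for csb3, at least 1.18-fold higher. The intron maturase gene matR had 1.5 and 1.0, so it gives no counterpart to matK.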
